A study of Mus musculus with 8 samples.

Results

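The comparison described here set the left hippocampus of wild-type mice that had been through trace fear conditioning and a memory test (WTL) against that of naive wild-type mice (WNL). It rests on 4 of the 8 arrays of the series, 2 per group, chosen by genotype and training alone. All mice of both groups were male C57BL/6 wild types of 6 to 8 weeks. In trace fear conditioning a tone and a foot shock are separated by a silent gap, and memory of the place was tested by returning the mice to the same chamber on the next day. The labels state that the animals were killed at once after that test and that naive mice received no treatment. Each RNA sample was pooled from the left hippocampi of 3 mice, and no arrays of shock alone, tone alone or chamber exposure alone were analysed here. The other 4 arrays came from trained (KTL) and naive (KNL) mice that lack Cav3.2, also of 6 to 8 weeks. The methods describe that line as bred to a C57/BL6 background. These 4 arrays entered the estimate of spread and 1 comparison at the end. Cav3.2 is the pore subunit of a T-type calcium channel, encoded by Cacna1h.

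Neurons answer activity with a fast wave of transcription. Calcium entry through glutamate receptors and voltage-gated channels activates calmodulin kinases and the Ras and MAP kinase cascade, which phosphorylate the transcription factor CREB on its DNA element. Immediate early genes such as Fos, Egr1 and Arc are switched on first, without new protein synthesis, and their mRNA is short-lived. Their induction in the hippocampus is widely used as a sign that cells took part in encoding or recalling a memory, and genes of synapses, growth factors and chromatin are induced or adjusted later.

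Markers of neurons, glia and hippocampal subfields could be read. Those of neurons, astrocytes, oligodendrocytes and hippocampal subfields had 22, 19, 17 and 22 members with values. None of these members lay at the floor on all 4 wild-type arrays. The floor is the intensity of 100 to which lower values were set, and 6.72% to 6.79% of the probes of a wild-type array lay there. Across 16588 probes, Pearson's r between the 2 arrays of a group was 0.979 for WTL and 0.985 for WNL, while a WTL array and a WNL array correlated at 0.971 to 0.983. Probes are not replicates, so these values describe the arrays only. The number of probes that differed by more than 2-fold was 362 between the 2 WTL arrays and 237 between the 2 WNL arrays, against 295 to 551 between a WTL and a WNL array. WTL replicate 2 was the array farther from WNL, with 411 and 551 such probes, against 295 and 320 for WTL replicate 1. Since nothing states that the 2 arrays of a group came from separate pools of mice, the p-values measure the spread between arrays, which may be technical.

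The limma fit called no probe between trained and naive wild-type hippocampus. In it 0 of 16588 probes (0%) passed the call, an adjusted p under 0.01 with a change over 2-fold, and the lowest adjusted p was 0.0237. At an unadjusted p under 0.05, 2506 probes differed, 1129 of them higher in WTL (6.81%) and 1377 lower (8.3%). The median log2 difference over all probes was 0.01. By size alone, 33 probes were over 2-fold higher in WTL and 112 were over 2-fold lower. A gene with several probes is represented by its brightest one from here on, which gives 11136 genes. Of these 787 were higher (7.07%) and 940 lower (8.44%) at an unadjusted p under 0.05, and for 2319 genes (20.8%) both WTL arrays lay above both WNL arrays and for 2372 (21.3%) both lay below. Counts of list members are to be read against these shares, and a difference called higher or lower without further words did not pass the adjusted test. In whole tissue, fewer cells of a type and less RNA per cell cannot be told apart.

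**Figure D1:**
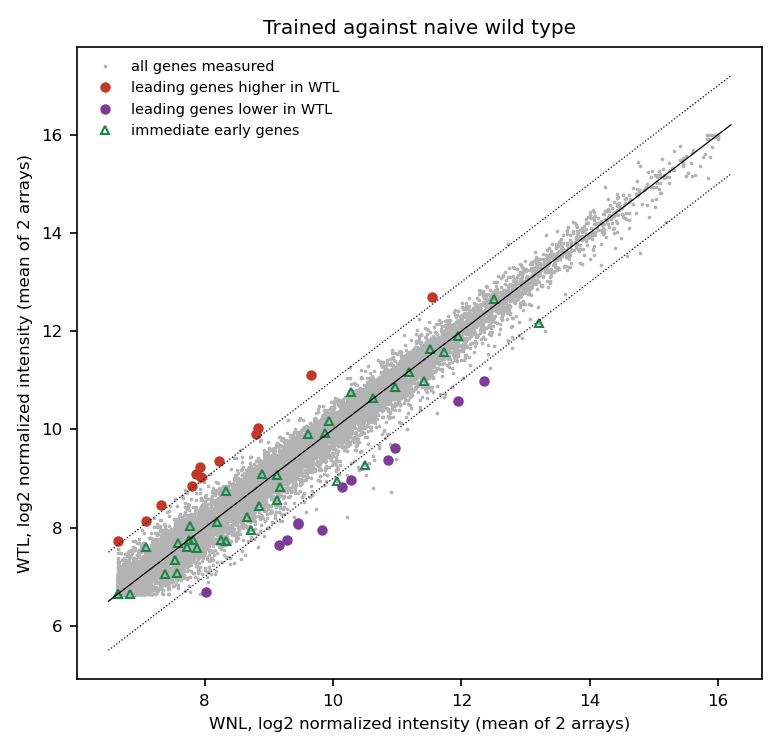
Mean log2 normalized intensity of each gene in WTL (vertical) against WNL (horizontal), 2 arrays each, with 11136 genes in grey, the 12 leading genes in each direction and the 40 measured immediate early genes. The solid line marks equal intensity and the dotted lines a 2-fold difference. Most genes lie between the dotted lines.

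The SAM test that the methods name called 4 probes, all lower in WTL. With 2 arrays against 2 its error rate rests on only 6 splits of the arrays, so these calls are weakly controlled. Ss18, a subunit of BAF chromatin remodelers, lay at the floor on both WTL arrays with its dimmer probe, which read 299 and 325 on the WNL arrays. That difference was at least 3.12-fold (adjusted p = 0.0237 from limma). That p depends on the arrays in the fit and the floor, since it was 0.459 with the 4 wild-type arrays alone, 0.220 without KNL, 0.108 with a floor of 50 and 0.120 with no floor. The brighter probe of Ss18 read 165 and 172 in WTL and 193 and 217 in WNL, a log2 difference of -0.28, so the probes of this gene disagreed in size. Mark3, a kinase that detaches tau and related proteins from microtubules, read 201 and 227 in WTL and 660 and 589 in WNL (log2 difference -1.54, standard error 0.19, adjusted p = 0.131 from limma). Cyb561d1, which encodes a cytochrome b561 protein, lay at 100 and 101 in WTL, against 236 and 251 in WNL. Rnf20, the E3 ligase that monoubiquitinates histone H2B, read 100 and 107 in WTL and 274 and 247 in WNL. In all 4 genes the groups did not overlap, and 3 of them lay at or near the floor in WTL.

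No immediate early gene passed as induced at the 1 time sampled, at once after the memory test on the day after training. Induction at other times was not measured. Of 53 listed, 40 were measured. In WTL 12 were higher, 25 lower and 3 equal, with a median log2 difference of -0.08, against a median of 0.01 over all 11136 genes. At an unadjusted p under 0.05, 1 was higher and 9 were lower, while 30 did not pass. That was 2.5% and 22.5% of the list, against 7.07% and 8.44% of all genes. Both WTL arrays lay above both WNL arrays for 4 genes and below them for 14. Among all genes the shares were 20.8% above and 21.3% below. None of the 40 passed the adjusted test, whose lowest p among them was 0.15. With 1 wild-type array left out at a time, the median ran from -0.17 to -0.02 and the number of lower genes from 7 to 10.

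Fos, a part of the AP-1 transcription factor and the most used marker of recent activity, read 542 and 445 on the WTL arrays, against 1024 and 1105 on the WNL arrays (log2 difference -1.12, standard error 0.16, adjusted p = 0.15). Egr1, the zinc finger factor also called Zif268, read 5202 and 4077 in WTL and 9101 and 9945 in WNL (log2 difference -1.05, standard error 0.21, adjusted p = 0.184). Dusp6, the phosphatase that ERK induces and that inactivates ERK in turn, read 512 and 744 in WTL and 1436 and 1452 in WNL (log2 difference -1.23, standard error 0.21, adjusted p = 0.173). In these 3 genes both WTL arrays lay well below the WNL arrays. Npas4, a factor specific to calcium signals in neurons, read 286 and 216 in WTL and 378 and 468 in WNL. Dusp1, a phosphatase of all MAP kinase families, read 359 and 403 in WTL and 535 and 586 in WNL. Btg2, an antiproliferative cofactor, read 298 and 296 in WTL, against 421 and 388 in WNL. The groups did not overlap in any of the 3, with log2 differences of -0.76, -0.56 and -0.44. Ptgs2, which encodes cyclooxygenase 2, read 213 and 216 in WTL and 269 and 345 in WNL. Bdnf, the brain-derived neurotrophic factor, read 331 and 367 in WTL and 479 and 439 in WNL, and Gadd45b, a protein of DNA repair and demethylation, 126 and 141 in WTL and 166 and 166 in WNL. The groups did not overlap here either, with log2 differences of -0.51, -0.40 and -0.32.

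The other members showed no common direction. Arc, a protein of the synaptic cytoskeleton whose mRNA travels into dendrites, read 2069 and 1678 in WTL, against 1795 and 2221 in WNL, and the groups overlapped. Junb, a partner of Fos, read 2210 and 2412 in WTL and 2348 and 2320 in WNL. Homer1, a scaffold of metabotropic glutamate receptors, read 3934 and 2553 in WTL and 2348 and 3634 in WNL, so that the arrays of a group differed more than the groups. Klf4 was the member that was higher, at 1533 and 1970 in WTL and 1411 and 1094 in WNL (log2 difference 0.48). Its adjusted p was 0.326, and 2 further probes of the gene had overlapping groups. Sik1, a kinase that restrains CREB coactivators, had a log2 difference of 0.52 with 167 and 228 in WTL and 155 and 119 in WNL. For Nr4a2, a nuclear receptor of the NR4A family, the brighter probe read 3053 and 3031 in WTL and 3408 and 3367 in WNL, while the dimmer one read 378 and 788 in WTL and 994 and 1161 in WNL. The 2 probes differed in size, with log2 differences of -0.15 and -0.98. Ccn1, Klf2 and Maff lay at the floor on all 4 arrays, so that no difference could be read for them. Fosb lay there on 3 arrays and at 130 in WNL replicate 2. The remaining members lay between -0.60 for Nfil3 and 0.40 for Fosl1.

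**Figure D2:**
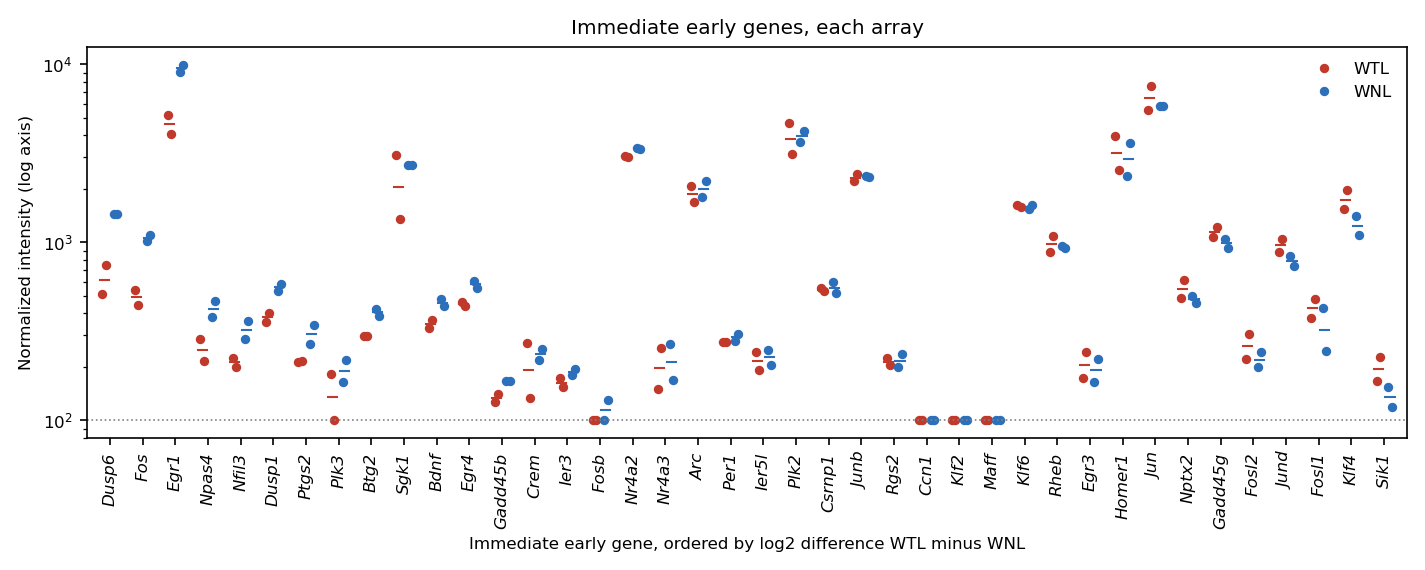
Normalized intensity (log axis) of 40 immediate early genes on the 2 WTL arrays (red) and the 2 WNL arrays (blue), with the geometric mean of each group as a short line and the floor of 100 as a dotted line. Genes run from the most negative log2 difference at the left (Dusp6, -1.23) to the most positive at the right (Sik1, 0.52). The points of the 2 groups stand apart in Dusp6, Fos and Egr1.

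CREB binds the cyclic AMP response element, TGACGTCA, and also its short form, TGACG, which reads CGTCA on the other strand. The promoters of 4 of the lower genes are shown because each holds such a match, over the 200 bases that end just before the annotated start, from RefSeq on build GRCm38.p6, 5′ to 3′ on the strand of the gene. Capitals mark the full element or the short form.
Fos, chromosome 12, chr12:85473690-85473889, plus strand: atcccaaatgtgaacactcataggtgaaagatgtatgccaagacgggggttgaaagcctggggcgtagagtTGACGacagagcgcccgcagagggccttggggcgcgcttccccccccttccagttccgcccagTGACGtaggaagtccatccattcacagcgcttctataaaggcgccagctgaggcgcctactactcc
Npas4, chromosome 19, chr19:4989972-4990171, minus strand: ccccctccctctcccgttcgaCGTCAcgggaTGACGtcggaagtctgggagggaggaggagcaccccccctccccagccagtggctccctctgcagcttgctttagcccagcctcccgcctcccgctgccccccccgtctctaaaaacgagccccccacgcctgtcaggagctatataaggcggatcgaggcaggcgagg
Dusp1, chromosome 17, chr17:26508473-26508672, minus strand: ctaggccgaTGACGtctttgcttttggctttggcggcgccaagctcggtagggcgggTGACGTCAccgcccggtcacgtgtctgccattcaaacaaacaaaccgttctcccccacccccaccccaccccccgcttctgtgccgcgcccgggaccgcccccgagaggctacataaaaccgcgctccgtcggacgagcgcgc
Btg2, chromosome 1, chr1:134079156-134079355, minus strand: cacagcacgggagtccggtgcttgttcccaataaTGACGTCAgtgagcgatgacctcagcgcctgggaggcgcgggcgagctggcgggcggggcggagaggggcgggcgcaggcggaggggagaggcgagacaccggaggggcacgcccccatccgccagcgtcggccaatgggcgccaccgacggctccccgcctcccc

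The full element began 143 bases before the start in Dusp1 and 166 bases before it in Btg2. In Fos short forms began at 129 and 66 bases before the start, and in Npas4 at 179 and 169 bases. Within the 250 bases before a start, on both strands, 33 of the measured immediate early genes had a window in the table, of which 4 held the full element (12.1%) and 23 at least a short form (69.7%), which the full element always includes. Among all 27025 genes in the table these shares were 1.77% and 19.8%, and among the 8975 genes of the array with a window 2.84% and 28.6%. The other 2 members with the full element were Plk2, which read 4676 and 3122 in WTL and 3650 and 4250 in WNL, and Maff, at the floor. Of 8 lower members with a window 5 held a short form, and Dusp6, Gadd45b and Ptgs2 held none. In all these counts a gene with several annotated starts was taken to hold a match if any of its windows did. Bdnf, for example, had 7 windows and Sgk1 had 6. Such a match is a description of letters in this window and was not tested.

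Calcium and calmodulin signaling, which lies upstream of CREB, had members on both sides. Of 18 measured calmodulin and kinase genes 3 were higher and 1 lower at an unadjusted p under 0.05, with a median log2 difference of 0.01. These counts were 16.7% and 5.56% of the list, against 7.07% and 8.44% of all genes. Camkk2, the kinase that activates the calmodulin kinases I and IV, read 552 and 542 in WTL and 369 and 414 in WNL. Camkv, a kinase-like protein of synapses, read 12050.3 and 12926 in WTL and 9401 and 8723 in WNL, and Camk2n1, an inhibitor of calmodulin kinase II, 24645 and 28235 in WTL and 19978 and 20161 in WNL. All 3 had groups that did not overlap, with log2 differences of 0.48, 0.46 and 0.39. Camk1d, a calmodulin kinase I of hippocampal granule cells, was lower with its brighter probe at 584 and 694 in WTL and 1538 and 1479 in WNL. Its second probe read 347 and 345 in WTL and 331 and 321 in WNL and had the opposite sign. Of 23 genes of CREB, its relatives and coactivators 1 was higher and 1 lower, with a median of -0.06. The coactivator Crtc1 read 4037 and 4923 in WTL and 3634 and 3258 in WNL, while the stress factor Atf5 read 968 and 1090 in WTL and 1216 and 1246 in WNL.

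Of 25 genes of cyclic AMP and protein kinase A signaling 2 were higher and 3 lower at an unadjusted p under 0.05, around a median of 0.00. Adcy3, an adenylyl cyclase, read 1392 and 1407 in WTL and 1011 and 1000.2 in WNL, with a log2 difference of 0.48. Rapgef4, which encodes the cyclic AMP sensor Epac2, read 721 and 599 in WTL and 927 and 975 in WNL. Adcy8, the calmodulin-stimulated cyclase, had the lowest value of the list at -1.26, but only WTL replicate 2 was low, at 133, while WTL replicate 1 read 766 and the WNL arrays 742 and 783. Among 20 protein phosphatase genes 1 was higher and 1 lower. They were Ppp1ca, a catalytic subunit of protein phosphatase 1, at 6966 and 6910 in WTL and 5233 and 5666 in WNL, and Ppp3r1, the regulatory subunit of calcineurin, at 328 and 338 in WTL and 434 and 424 in WNL.

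The Ras and MAP kinase cascade had more members on the lower side of the test than on the higher. Of 43 measured genes 7 were lower (16.3% of the list, against 8.44% of all genes) and 3 higher (6.98%, against 7.07%). The other measures did not lean that way, since 23 were higher in sign and 19 lower, with a median of 0.00. Both WTL arrays lay above both WNL arrays for 12 of the genes and below them for 10. Both MEK genes were among the lower ones. Map2k1 read 21032 and 22378 in WTL and 28802 and 25135 in WNL, and Map2k2 read 4735 and 4960.4 in WTL and 6840.0 and 6604 in WNL, with log2 differences of -0.31 and -0.47. Mapk7, the large MAP kinase ERK5, read 187 and 163 in WTL and 252 and 320.3 in WNL. Mknk2, a kinase of the cap-binding factor eIF4E, read 258 and 441 in WTL and 549 and 647 in WNL, while its relative Mknk1 lay on the other side at 2346 and 2131 in WTL and 1686 and 1896 in WNL. Map2k2 and Mknk1 were picked after their values had been seen. Ksr1, the scaffold that joins RAF to MEK and ERK, had the highest value of the list, with 419 and 365 in WTL and 243 and 250 in WNL (log2 difference 0.67). Of 16 dual specificity phosphatases 3 were lower, among them Dusp6 and Dusp1, and 3 higher, each 18.8% of the list. Dusp8, which acts on JNK, read 6721 and 6396 in WTL and 3735 and 5290 in WNL with its brighter probe, and the groups overlapped with the dimmer one.

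Growth factor genes did not move as a group. Of 22 measured neurotrophin and receptor genes 4 were higher and 2 lower at an unadjusted p under 0.05, with a median of -0.02. These counts were 18.2% and 9.09% of the list, against 7.07% and 8.44% of all genes. Ntrk2, the receptor of BDNF, read 7918 and 8378 in WTL and 6749 and 5220 in WNL, so that ligand and receptor lay on opposite sides, at -0.40 and 0.46. Fgfr2 read 3064 and 3233 in WTL and 4659 and 3643 in WNL, and its dimmer probe had overlapping groups. Of 28 genes of the PI3 kinase, mTOR and protein kinase C pathways 2 were higher and 2 lower. Mtor, the kinase that couples growth signals to translation, read 1844 and 1972 in WTL and 1664 and 1379 in WNL, and Tsc1, which restrains mTOR, read 1971 and 1622 in WTL and 2363 and 2437 in WNL.

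Most genes of the excitatory synapse passed in neither direction at an unadjusted p under 0.05. Of 18 ionotropic glutamate receptor genes 1 was higher and 2 lower, and of 7 of the metabotropic class none passed in either direction. Gria1, an AMPA receptor subunit, read 14825 and 15468 in WTL and 14026 and 14408 in WNL, a log2 difference of 0.09. Its other probes had opposite signs, with log2 differences of 0.22 and -0.22 and groups that did not overlap in either. Cnih2, an auxiliary subunit that slows AMPA receptor closing, read 4562 and 6262 in WTL and 3754 and 3797 in WNL. Postsynaptic scaffolds had a median of 0.11, with 21 of 31 members higher in sign, 3 of them higher and 2 lower at an unadjusted p under 0.05. Dlg4, which encodes PSD-95, read 3697 and 4367 in WTL and 3164 and 3033 in WNL, but its dimmer probe had overlapping groups. Kalrn, an exchange factor that enlarges spines, read 1653 and 1464 in WTL and 1078 and 1140.2 in WNL with its brighter probe. The dimmer Kalrn probe was lower, at 199 and 185 in WTL and 201 and 234 in WNL. Lrrtm2, an adhesion protein that binds neurexin, lay on the other side at 1522 and 1897 in WTL and 2106 and 2502 in WNL. Among the 36 synaptic vesicle and SNARE genes 5 were higher and 1 lower, around a median of 0.00. That was 13.9% and 2.78% of the list, against 7.07% and 8.44% of all genes. The vesicle proteins Syp, at 4567 and 4669 in WTL and 3695 and 3497 in WNL, and Sv2a, at 6649 and 8118 in WTL and 5340.0 and 4603 in WNL, were among the higher ones. The second probe of Sv2a had overlapping groups, with 5297 and 6306 in WTL and 5487 and 5578 in WNL, as did that of Syt1.

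Genes of inhibitory neurons lay on both sides. Of 14 genes of GABA synthesis, transport and receptors 3 were lower and 0 higher at an unadjusted p under 0.05, with a median of -0.03. The lower ones were 21.4% of the list, against 8.44% of all genes. Slc32a1, the transporter that fills vesicles with GABA, read 1862 and 1677 in WTL and 2973 and 2620.3 in WNL (log2 difference -0.66, standard error 0.16, adjusted p = 0.206). The synthetic enzyme Gad2 lay at 2279 and 2035 in WTL and 1967 and 1698 in WNL, so that transporter and enzyme had opposite signs. Of 26 neuropeptide and receptor genes 5 were lower and 1 higher (19.2% and 3.85% of the list). Somatostatin, Sst, a peptide of dendrite-targeting interneurons, read 27486 and 30484 in WTL and 37473 and 33489 in WNL. Vip, a peptide of interneurons that inhibit other interneurons, read 187 and 167 in WTL and 261 and 219 in WNL, and Nts, neurotensin, 859 and 897 in WTL and 1439 and 1178 in WNL. Npy2r, a presynaptic receptor of neuropeptide Y, had the lowest value at -1.18, with 1517 and 3934 in WTL and 5239 and 5884 in WNL. Npy itself was the member that was higher, at 3522 and 4139 in WTL and 2992 and 3061 in WNL. Reln, the secreted protein reelin, read 2263 and 1952 in WTL and 1357 and 1427 in WNL, with a log2 difference of 0.60, while its dimmer probe had overlapping groups. Over the whole list of 20 interneuron markers 12 were higher in sign and 8 lower, with a median of 0.05 (-0.04 without WNL replicate 2), and 3 were higher and 4 lower at an unadjusted p under 0.05. Their summed intensity, of which Sst makes up the largest part, was 60014 and 60564 in WTL, against 66966 and 62470 in WNL.

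Ion channel genes differed in both directions. Cacna1h, which encodes Cav3.2, read 2836 and 1838 in WTL and 2732 and 2985 in WNL, and the groups overlapped (log2 difference -0.32, adjusted p = 0.577). Of 14 voltage-gated calcium channel genes 2 were higher and 1 lower at an unadjusted p under 0.05. Cacna1c, the L-type channel Cav1.2, read 524 and 609 in WTL and 728 and 714 in WNL. Cacng4, an AMPA receptor auxiliary subunit of the gamma family, read 357 and 397 in WTL and 267 and 230.1 in WNL. Of 38 potassium channel genes 5 were higher and 6 lower (13.2% and 15.8% of the list, against 7.07% and 8.44% of all genes). Kcna6, a Shaker-type channel, read 995 and 1048 in WTL and 1544 and 1538 in WNL, although the groups overlapped with its dimmer probe, and Kcnab2, a cytoplasmic partner of such channels, read 4502 and 4772 in WTL and 7295 and 7986 in WNL. Kcna4, also of the Shaker type, lay at the floor on both WTL arrays and at 179 and 169 in WNL. On the other side stood Kcnma1, the BK channel, at 5044 and 5127 in WTL and 4341 and 3968 in WNL, and its subunit Kcnmb4, at 3766 and 3626 in WTL and 3071 and 2892 in WNL. These 2 were picked after their values had been seen. Of 18 monoamine and acetylcholine receptors 1 was higher and 2 lower. The dopamine receptor Drd4 read 334 and 382 in WTL and 223 and 203 in WNL, Drd5 209 and 265 in WTL and 394 and 350.2 in WNL, and the serotonin channel Htr3a 196 and 293 in WTL and 407 and 414 in WNL.

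Of 30 heat shock and endoplasmic reticulum chaperone genes 23 were lower in sign and 7 higher, with a median of -0.14, and 6 were lower (20% of the list) and 0 higher at an unadjusted p under 0.05. Hspa8, the constitutive Hsc70 chaperone, read 3286 and 2237 in WTL and 4094 and 4102 in WNL. Hspa1b, an inducible Hsp70, read 298 and 229 in WTL and 366 and 462 in WNL, and Manf, a secreted factor of the unfolded protein response, 461 and 289 in WTL and 652 and 574 in WNL. WTL replicate 2 was the lowest array in all 3 genes. Leaving out 1 wild-type array at a time gave a median of -0.22 to -0.06 and 2 to 6 lower genes. Of 18 circadian genes 13 were lower in sign, with 2 lower and 1 higher at an unadjusted p under 0.05 and a median of -0.11. Those passing are 11.1% lower and 5.56% higher, against 8.44% and 7.07% of all genes. Arntl, the clock activator BMAL1, read 698 and 620 in WTL and 958 and 1231 in WNL, while Nr1d2, a repressor in the same loop, read 991 and 988 in WTL and 732 and 695 in WNL. Among 28 glucocorticoid receptor and target genes 15 were higher in sign and 13 lower, and 2 were higher and 2 lower at an unadjusted p under 0.05, around a median of 0.02. Of 58 chromatin regulators 2 were higher and 4 lower, with a median of 0.03. Besides Rnf20 and Ss18 the lower ones were the deacetylases Hdac3, at 417 and 355 in WTL and 545 and 563 in WNL, and Hdac6, at 347 and 369 in WTL and 440 and 524 in WNL.

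Energy metabolism and protein turnover had members on both sides. In sign, oxidative phosphorylation had 41 lower and 23 higher, and the citric acid cycle 16 lower and 8 higher. Of all 11136 genes 5204 were lower and 5788 higher. Of 64 genes of oxidative phosphorylation, taken by the start of their symbols, 3 were higher and 7 lower at an unadjusted p under 0.05, with a median of -0.04. Ndufb3, of complex I, read 2462 and 4276 in WTL and 6920.2 and 7261 in WNL, and Atp5b, the catalytic subunit of ATP synthase, read 32198 and 38988 in WTL and 52719 and 65476 in WNL, the second of these close to the highest intensity on that array. Cox6b1, of cytochrome c oxidase, lay on the other side at 30082 and 32445 in WTL and 21778 and 17192 in WNL. Cox5a, of the same complex, read 18243 and 10725 in WTL and 2617 and 17481 in WNL, so that 1 WNL array stood apart and the groups overlapped. Of 24 citric acid cycle genes 1 was higher and 3 lower, with a median of -0.11. Fh1, fumarase, read 3687 and 2990.1 in WTL and 5276 and 4295 in WNL, and Idh1, the cytosolic isocitrate dehydrogenase, 6622 and 7762 in WTL and 5029 and 5355 in WNL, while the dimmer Idh1 probe overlapped between the groups with a log2 difference of -0.10. Of 38 proteasome genes, taken by the start of their symbols, 6 were higher and 6 lower, each 15.8% of the list. Psme3ip1 had the highest value at 0.47, with 3117 and 2769 in WTL and 1940 and 2327 in WNL. Its dimmer probe overlapped between the groups. Psmd9 had the lowest at -1.14, with 118 and 197 in WTL and 335 and 336 in WNL. Its dimmer probe had the opposite sign, at 0.19. Also lower were Psmd6, at 628 and 467 in WTL and 899 and 966 in WNL, and Psma4, at 3602 and 2589 in WTL and 4425 and 5005 in WNL. Of 24 cytosolic ribosomal protein genes 1 was higher and 0 lower, with a median of 0.03.

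The leading genes had the largest differences among genes at an unadjusted p under 0.05 whose groups did not overlap. At least 1 group had to lie above the floor on both arrays. The leading genes are shown because no probe passed the adjusted test. They were chosen by this difference, so their values are a description. Several of the 12 higher ones belong to tissues other than brain. Stat4, a transcription factor of lymphocytes, read 6191 and 7011 in WTL and 2101 and 4207 in WNL. Cd79a, a chain of the B-cell receptor, read 472 and 626 in WTL and 152 and 356 in WNL, and Klrg1, a receptor of killer cells, 496 and 554 in WTL and 275 and 220.5 in WNL. Guca1b, an activator of retinal guanylate cyclase, read 1042 and 1039 in WTL and 480.03 and 428 in WNL (standard error of the log2 difference 0.17, adjusted p = 0.15). Pomc, the precursor of melanocortins and endorphin, read 239 and 185 in WTL and lay at the floor in both WNL arrays, at least 2.10-fold higher. Msx2, a homeobox factor, had the largest difference, 1.45, with 2214 and 2181 in WTL, but the WNL arrays read 442 and 1462. The other 6, Aqp8, Tnfsf9, Galp, Sntb2, Arhgap24 and Olfr24, had log2 differences of 1.06 to 1.30.

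Among the 12 lower ones Mogs, a glucosidase that trims N-glycans, had the largest difference, -1.89, which rests on 1 array, since WTL replicate 1 read 607 and WTL replicate 2 lay at the floor, against 946 and 878 in WNL. Acadm, which oxidizes fatty acids of medium chain length, read 797 and 551 in WTL and 1755 and 1942 in WNL (log2 difference -1.48, standard error 0.19, adjusted p = 0.15). Arhgap5 read 247 and 296 in WTL and 736 and 663 in WNL, and its adjusted p was 0.103, a value that 5 further probes shared. Inpp5f, an inositol phosphatase, read 1099 and 2128 in WTL and 3957 and 3955 in WNL, and Psd2, an exchange factor for ARF6 in neurons, 155 and 261 in WTL and 569 and 569 in WNL. Timm10, a chaperone of mitochondrial import, read 368 and 687 in WTL and 1149 and 1333 in WNL. The WNL arrays lay close together in these genes, and most of the spread was between the WTL arrays. Lmbrd1, Slc16a6, Ube4b and Nup62 had log2 differences of -1.31 to -1.36, with overlapping groups for the dimmer probe of Lmbrd1, and Mark3 and Rnf20 are given above. Prdx2, a peroxiredoxin outside the leading genes that was picked after its values had been seen, was lower on both of its probes. They read 589.8 and 507 in WTL and 1239 and 1277 in WNL for the dimmer one, and 1948 and 1771 in WTL and 3675 and 3758 in WNL for the brighter one, with adjusted p = 0.103 for each.

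**Figure D3:**
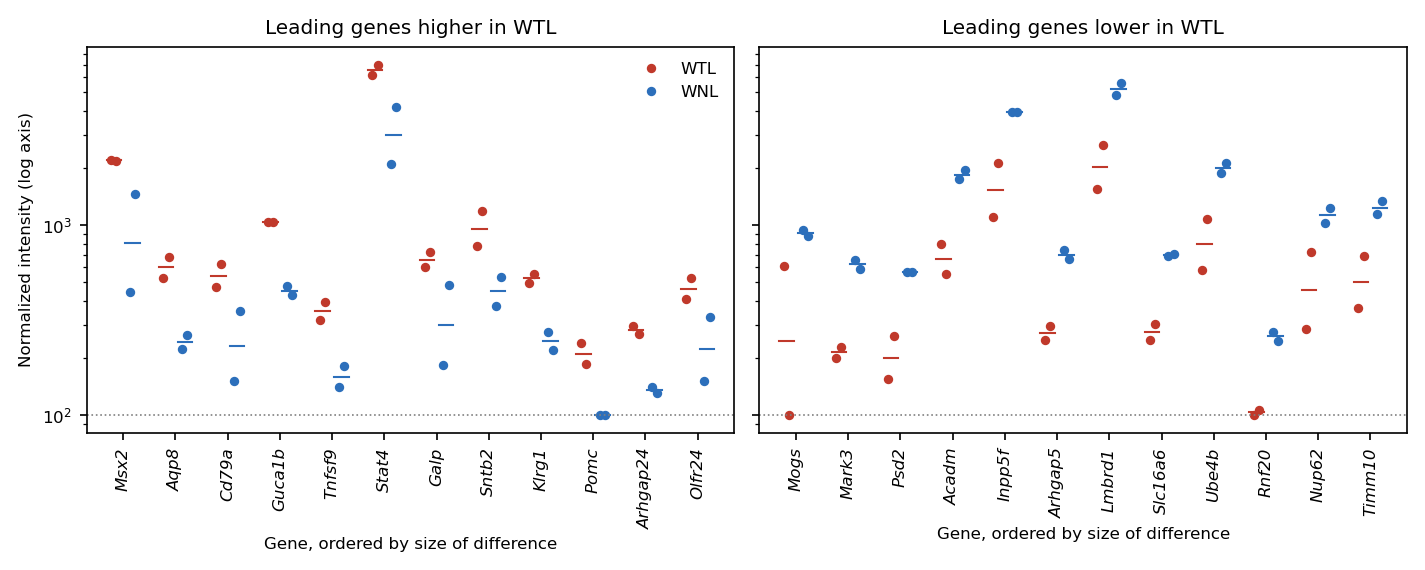
Normalized intensity (log axis) of the 12 leading genes higher in WTL (left panel) and the 12 lower in WTL (right panel), with the 2 WTL arrays in red, the 2 WNL arrays in blue, the geometric mean of a group as a short line and the floor of 100 as a dotted line. Arrays of a group lie apart in genes such as Msx2, where WNL read 442 and 1462, and Mogs, where WTL read 607 and 100.

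Markers of other cell types and tissues were set beside these results. Of 14 measured markers of choroid plexus and ependyma 6 were lower and 1 higher at an unadjusted p under 0.05, with a median of -0.17. That was 42.9% and 7.14% of the list. Among all genes 8.44% were lower and 7.07% higher, which holds beside each list below. Their summed intensity was 43465 to 45643 in WTL and 57345 to 58311 in WNL. Ttr, transthyretin, which makes up most of that sum, read 38255 and 35240 in WTL and 49816 and 49065 in WNL, and Otx2, a factor of the plexus, 279 and 270 in WTL and 381 and 379 in WNL. Clic6 and Kl overlapped between the groups. Of 13 endothelial and mural markers 4 were higher (30.8%) and 0 lower, with a median of 0.21. Their sums were 9943 to 10452 in WTL and 8017 to 8178 in WNL. Acta2, smooth muscle actin, read 2336 and 2330.4 in WTL and 1383 and 1526 in WNL with its brighter probe, and the groups overlapped with the dimmer one. Of 15 microglia markers 4 were lower (26.7%) and 1 higher (6.67%), with sums of 16033 to 16805 in WTL and 15896 to 17075 in WNL. Of 19 astrocyte markers 2 were lower, one of them glutamine synthetase, Glul, at 35945 and 36867 in WTL and 47291 and 45377 in WNL, and of 17 oligodendrocyte markers none passed in either direction. Markers of thalamus, septum, striatum and cortex had a median of 0.31 over 15 members, with 3 higher (20%) and 0 lower. Their sums were 12629 to 13597 in WTL and 11413 to 11449 in WNL. With 1 array left out these medians ran from 0.12 (without WNL replicate 2) to 0.27 for thalamus, septum, striatum and cortex, from -0.30 (without WNL replicate 2) to -0.11 for choroid plexus and ependyma and from 0.13 to 0.15 for endothelial and mural cells. With a floor of 200 the median was 0 for choroid plexus and ependyma and 0.06 for endothelial and mural cells. It was 0.30 for thalamus, septum, striatum and cortex. None of the markers in these lists lay at the floor on all 4 arrays. Their part in the differences of other genes was not tested.

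Olfactory receptors and keratins serve nose and skin. Of 175 measured olfactory receptor genes, 132 were higher in sign, 40 lower and 3 equal, against 5788 higher, 5204 lower and 144 equal among all 11136 genes. At an unadjusted p under 0.05, 9 were higher and 0 lower, which is 5.14% of them against 7.07% of all genes, and their median was 0.18. Without 1 array this median ran from 0.00, without WTL replicate 2, to 0.34, without WTL replicate 1. Of 32 genes whose symbols begin like those of keratins and cornified envelope proteins, 6 were higher (18.8%) and 1 lower (3.12%). Their median was 0.28 and ran from 0.19 to 0.39 with 1 array left out. With a floor of 200 the median was 0 for both lists, and with no floor it was 0.31 for keratins and 0.24 for olfactory receptors. Krt31, a hair keratin, read 158 and 193 in WTL and 127 and 100 in WNL.

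**Figure D4:**
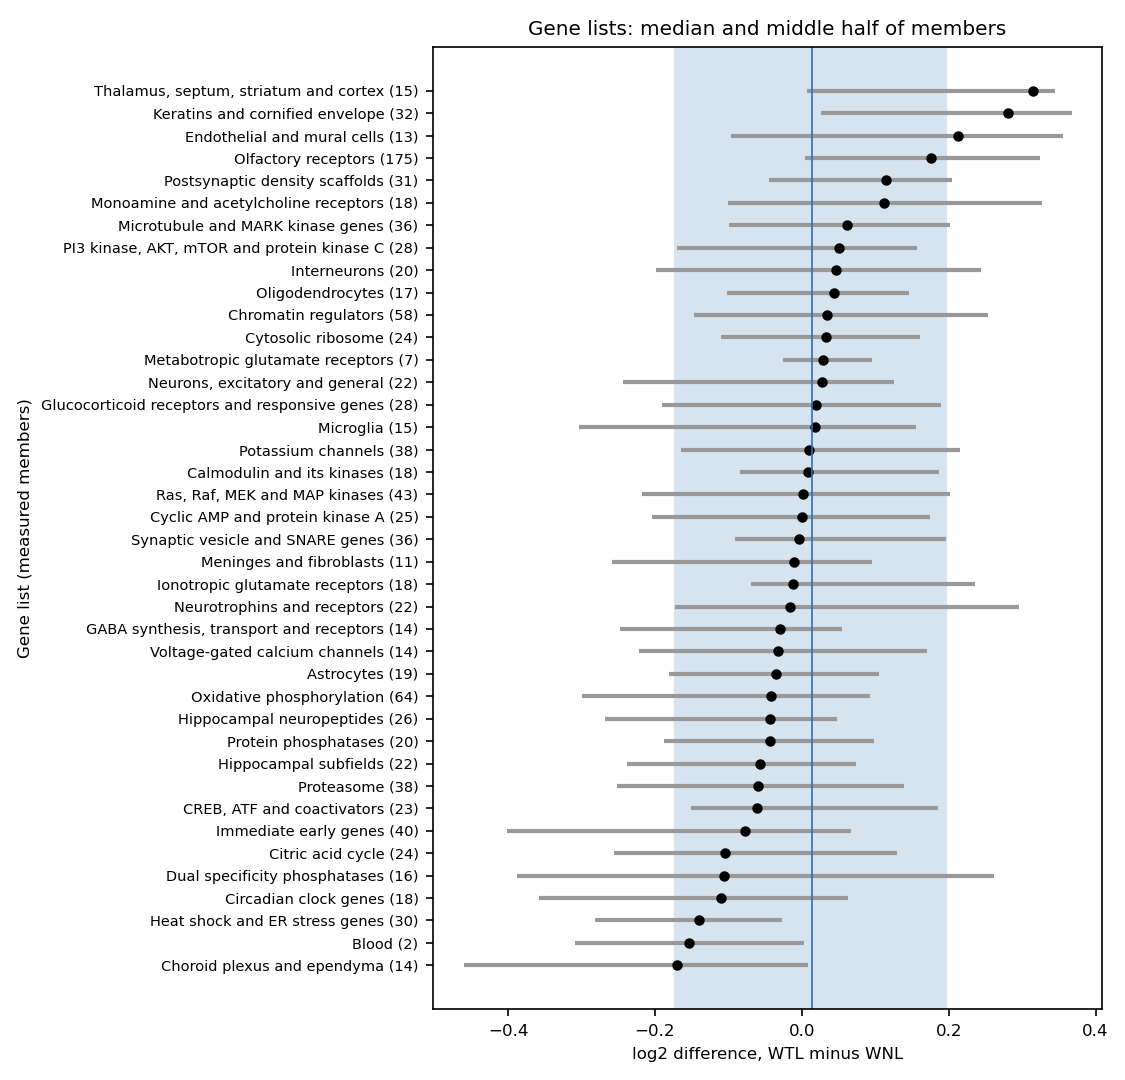
Median log2 difference, WTL minus WNL, of each gene list (points), with the interquartile range of its members (grey bars) and the number of measured members in brackets. The shaded band and the line give the same for all 11136 genes. Medians run from -0.17 for choroid plexus and ependyma to 0.31 for thalamus, septum, striatum and cortex, and bars of most lists overlap the band widely.

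The training difference was then compared between genotypes, with the interaction term of the same limma fit. At an adjusted p under 0.01 it differed in 2957 of 11136 genes (26.6%), in 16 of the 40 immediate early genes and in 15 of the 24 leading genes, which had been chosen for their wild-type difference. The KNL arrays stood apart from all others on these measurements, with correlations of 0.852 to 0.938 with arrays of other groups, while arrays of different groups among the other 3 correlated at 0.968 to 0.985. WTL replicate 2 was the array nearest to KNL, at 0.938 and 0.916. Dusp1 had a log2 difference of -0.56 in wild type and 2.21 in the knockout, where it read 589 and 636 in KTL and 139 and 126 in KNL. The training difference had opposite signs in the genotypes for Egr1, at -1.05 and 1.32, for Bdnf, at -0.40 and 1.71, and for Ptgs2, at -0.51 and 1.49. Dusp6 was of the same kind, with 998 and 1256 in KTL and 430.04 and 364 in KNL. For Fos it was -1.12 in wild type and 0.31 in the knockout (adjusted p = 0.00444 for the difference). Arc had -0.10 in wild type and 0.31 in the knockout, a difference that did not pass (adjusted p = 0.216).

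**Figure D5:**
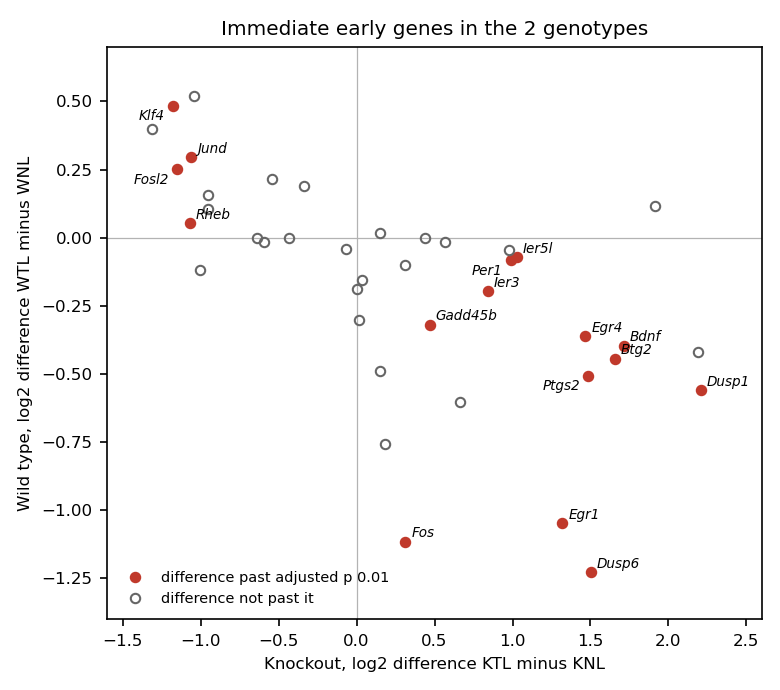
Log2 difference between trained and naive mice in wild type (WTL minus WNL, vertical) against that in the knockout (KTL minus KNL, horizontal) for 40 immediate early genes. Filled and labelled points are the 16 genes whose training difference was not the same in the genotypes at an adjusted p under 0.01. Most of them lie in the lower right, negative in wild type and positive in the knockout, as Egr1 at -1.05 and 1.32.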

How the data were processed

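RNA from left hippocampi was labelled with Cy5 and hybridised to Mouse Whole Genome OneArray chips. The deposited values are linear intensity values that the authors averaged over 2 technical replicates and quantile normalized. The rule behind the blanks of 13334 of 29922 probes is not given in the sources used here. The 16588 probes with values on all 8 arrays were set to a floor of 100, quantile normalized and taken to log2. Symbols came from the platform annotation, updated through RefSeq for 2099 probes. Of the 16588 probes 13183 had a symbol and 3405 had none, which gave 11136 genes, of which 1759 had several probes.

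A linear model with a mean for each group was fitted to all 8 arrays (limma 3.58.1, R 4.3.3), and p-values were adjusted by the Benjamini-Hochberg method over all probes. The spread of a probe rested on 4 residual degrees of freedom. The methods' SAM test was run as an alternative, over 6 splits. Named genes were the 12 largest differences in each direction among genes whose groups did not overlap, the immediate early genes, the probes called by SAM, Cacna1h, and from each other list the 3 brightest members, up to 4 below an unadjusted p of 0.05 and the highest and lowest difference. Genes outside this rule are said in the text to be picked later. The members and lists were chosen with earlier results of these data known. The deviations of same-numbered arrays correlated at -0.157 between WTL and WNL, and at -0.249 to 0.432 over the 6 pairs of groups, the highest between WTL and KNL. No label ties the numbers to a shared batch, so they were not used to pair samples. Alternatives covered the floor, the normalization, the filter, the arrays in the fit and the replicate block.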

Additional observations from a re-analysis of the deposited data

Results flagged for a closer look

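The training difference in wild type (WTL minus WNL) was set against that in the knockout (KTL minus KNL) for the 24 leading and 40 immediate early genes. By the interaction term of limma, 31 of 64 (48.4%) differed between genotypes at an adjusted p under 0.01, against 26.6% of all genes. Leading genes were chosen for their wild-type difference, and KNL enters every one of these values and stood apart from the other groups. Its part in them was not tested.

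In 22 genes the wild-type difference was the more negative. On the log2 scale, wild type minus knockout was -3.18 for Timm10, -2.82 for Psd2, -2.77 for Dusp1, -2.73 for Dusp6, -2.62 for Ube4b, -2.54 for Acadm, -2.47 for Mark3 and -2.46 for Rnf20. It was -2.37 for Egr1, -2.30 for Inpp5f, -2.11 for Bdnf, -2.10 for Btg2, -1.99 for Ptgs2, -1.91 for Lmbrd1, -1.83 for Egr4, -1.73 for Slc16a6 and -1.43 for Fos. Smaller values were those of Ier5l (-1.10), Per1 (-1.07), Ier3 (-1.04), Arhgap5 (-0.95) and Gadd45b (-0.79). Arhgap5 alone among these was lower in trained mice of both genotypes, by -1.37 in wild type and -0.42 in the knockout.

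In 9 genes the wild-type difference was the more positive. It exceeded that of the knockout by 1.12 for Rheb, 1.35 for Jund, 1.40 for Fosl2, 1.63 for Klrg1, 1.66 for Klf4, 1.68 for Pomc, 1.80 for Aqp8, 2.02 for Guca1b and 2.55 for Stat4. All 9 were negative in the knockout.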

How the results depend on the processing

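Against 0 probes called by limma, SAM called 4, an adjusted p under 0.05 called 1 with no fold limit and 1 over 1.5-fold, and a test against a 1.2-fold change called 1, all lower in WTL. Leaving out 1 array at a time gave 0 to 10 called probes. The 10 were lower without WTL replicate 1, Mogs among them (log2 difference -3.19, adjusted p = 0.00613), and 2 were higher without WNL replicate 2. There the lone array is assumed to vary like the others. Probes at an unadjusted p under 0.05 ran from 761 to 1404 higher and from 808 to 1789 lower, and WNL replicate 2 set the lowest count of the lower ones. The median of the immediate early genes was -0.019 with a floor of 200, and -0.17 to -0.021 with 1 array left out. The number of leading and immediate early genes that differed between genotypes was 13 with a floor of 200 and 11 to 28 with 1 wild-type array left out. The replicate block called 0 probes and left 911 higher and 1204 lower and 18 genes that differed between genotypes, and the crossed block, added after seeing the data, called 0. The cause of these shifts was not tested. No named gene passed the threshold to begin with, so that 553 of 554 values stayed on the same side, Mogs being the exception, says little of stability. With a floor of 200 the log2 difference was 0.13 for Pomc, -0.38 for Rnf20, -0.28 for Cyb561d1 and 0 for Gadd45b. Of 429 values for list medians, 312 moved by less than the spread between replicates and 117 by more. The adjusted p of the Ss18 probe, the call at an adjusted p under 0.05, ran from 0.0179 to 0.459. With 2 arrays per group, small differences cannot be seen.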
